A study of Homo sapiens with 9 samples.

Results

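CNTN1, CADM1, CADM4, NCAM1, NCAM2, L1CAM, ALCAM, MCAM, NRCAM and ICAM1, 10 genes of the immunoglobulin family of cell adhesion molecules, were followed in multicellular tumor spheroids (MTSs) of PC3 cells with and without added NF-YA. They were taken by name, in a choice made with earlier results of these data known. Each of the 10 symbols matched 1 of the 27111 genes in the count tables. Enough reads for a test were found for 8 of the 10, while NCAM1 and NRCAM stayed at a few reads in any library. PC3 is a human prostate cancer line derived from a bone metastasis. NF-Y is a trimeric transcription factor that binds the CCAAT box, and its NF-YA subunit is made as a long (NF-YAl) or a short (NF-YAs) splice variant. The control line (Empty) carried the lentiviral vector without insert, and the other lines carried the murine coding sequence of NF-YAl or of NF-YAs, in addition to the human gene that all PC3 cells keep. All 3 lines were selected with puromycin and grown as MTSs, and each of the 9 libraries, 3 per line, held RNA of pooled MTSs from 1 experiment. Each condition was thus a single stably transduced line, so that an effect of the transgene and any other difference between the lines cannot be told apart. In RNA from whole MTSs, fewer cells that express a gene and less RNA per cell cannot be told apart either.

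Members of this family carry immunoglobulin-like domains outside the cell, with which they bind the same molecule on a neighbouring cell, another family member, or integrins and matrix proteins. Contactins are held by a lipid anchor, while the L1, NCAM, ALCAM and MCAM proteins mostly span the membrane and reach the cytoskeleton through ankyrins, ERM proteins and protein 4.1 family members. In carcinomas they are known both as junction proteins that keep epithelial cells together and as molecules taken up by invading cells. The comparisons ask how their RNA differed between Empty, NF-YAl and NF-YAs MTSs.

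Libraries held 18076979 to 27163976 expected counts, which are estimates of reads per gene. Total counts were lowest in NF-YAs A and highest in Empty B, and the NF-YAl library lettered D stood apart at -47.5 on the third principal component, where the others lay between -4.94 and 30.9. Levels are given as CPM, scaled to the depth of each library, for comparisons between lines and as TPM, which also correct for transcript length, for comparisons between genes. A gene was called up or down at an adjusted p under 0.01 with a log2 fold change beyond 1 in either direction, from one edgeR fit over all 17108 tested genes. NFYA itself was at 89.3 to 96.7 CPM in Empty against 286.9 to 383.1 in NF-YAl, and 254.0 to 264.5 in NF-YAs, so the gene total was higher in every library of both overexpressing lines. The long transcript of 6219 bases took 29.7%, 62.1% and 54.7% of NFYA TPM in Empty A, B and C, and the short one of 6132 bases took the rest. In NF-YAl A, B and D the long transcript took 29.7%, 29.5% and 66.1%, and in NF-YAs A, B and C it took 23%, 9.02% and 22.1%. In NF-YAl A and B the form named in the label was thus not the larger part by this estimate, and the NF-YAl libraries overlapped those of Empty. Reads were assigned to human transcripts only, so murine and human NFYA cannot be told apart here. NF-YAl and NF-YAs denote the labelled lines throughout. Among markers of epithelium, KRT8, KRT18 and KRT19 were high in all libraries. EPCAM averaged 0.713 TPM in Empty against 4.21 in NF-YAl, with 2.18 in NF-YAs, and CDH1 averaged 1.58 against 2.31, with 0.723. The summed TPM of the 5 epithelial markers, carried by the keratins, was 910.6 to 1133 in Empty against 581.2 to 1071 in NF-YAl, and 660.8 to 734.2 in NF-YAs. KLK3, the gene of prostate-specific antigen, was listed at 0 in every library. The summed TPM of the 5 leukocyte markers, nearly all from CD68, was 36.2 to 42.9 in Empty against 15.0 to 42.5 for NF-YAl and 23.3 to 26.7 for NF-YAs, while PTPRC, which defines leukocytes, reached at most 0.54. The summed TPM of the 5 endothelial markers was 1.42 to 3.01. That of the 6 neuroendocrine markers was 138.2 to 165.9 in Empty against 96.2 to 150.3 in NF-YAl, and 72.6 to 86.1 in NF-YAs, nearly all from ENO2, while SYP averaged at most 1.29 in a line and INSM1 was listed at 0 in every library. These marker values are TPM, and the lines were not compared by CPM for them. The part of these markers in the results was not tested.

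Sequences of CNTN1, MCAM and ICAM1 are shown here because these genes differed most between the lines among members with a listed promoter, or were measured by RT-qPCR in the study. The study's primers for CNTN1 both lie in coding sequence near the 3′ end of the gene, the forward one in exon 23 (GRCh37 chr12:41422946-41422967, plus strand) and the reverse one in exon 24 (chr12:41463806-41463826, minus strand) of the main GENCODE transcript. They matched 4 of 11 annotated CNTN1 transcripts, and the predicted product was 142 or 265 bases long.
CNTN1 forward primer: gatggagaatacgttgtggagg
CNTN1 reverse primer: agtagacaaggatgccaaagg

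The RefSeq promoter table (GRCh38.p14) held 12 windows for 8 of the 10 members, each of 250 bases before and 50 after a start, and all 12 matched GRCh37 exactly and once. CADM1 and NCAM1 had no entry. The CCAAT box bound by NF-Y was searched as CCAAT or, on the other strand, ATTGG. It occurred in 3 of the 12 windows, which were 1 of the CNTN1 windows and 2 of the NRCAM windows. Of all promoters of the same length 34.6% held it. No such letters stood in the windows of MCAM and ICAM1. After these windows had been seen, 2 further motifs were searched on both strands. The kappaB letters GGAAATTCC, or GGAATTTCC on the other strand, occurred in the ICAM1 window, and in 0.461% of all promoters. Only this exact form was searched, and it was chosen with the ICAM1 window in view. The share is thus not that of promoters with any kappaB site, and the match in ICAM1 is no independent result. The cyclic AMP response element TGACGTCA, which reads the same on both strands, occurred in the MCAM window and in 1 NRCAM window. It occurred in 1.85% of all promoters and in 2.46% of those of tested genes. This motif too was searched after the windows had been seen, so its matches are no independent result. The 3 motifs did not overlap one another in the windows. Upstream parts without annotated exon bases are printed 5′ to 3′ on the strand of the gene, with the motif in capitals. Neither CNTN1 window lies at the start of the main GENCODE transcript at position 41086241. The printed parts lie in GRCh37 at chr12:41301909-41302155 (CNTN1, plus strand), chr19:10381546-10381768 (ICAM1, plus strand) and chr11:119187841-119188090 (MCAM, minus strand).
CNTN1 upstream window: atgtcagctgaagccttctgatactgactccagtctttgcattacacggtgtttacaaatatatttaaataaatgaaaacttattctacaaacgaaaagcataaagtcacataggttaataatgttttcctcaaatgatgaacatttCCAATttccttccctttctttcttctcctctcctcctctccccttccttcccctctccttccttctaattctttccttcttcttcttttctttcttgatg
ICAM1 upstream window: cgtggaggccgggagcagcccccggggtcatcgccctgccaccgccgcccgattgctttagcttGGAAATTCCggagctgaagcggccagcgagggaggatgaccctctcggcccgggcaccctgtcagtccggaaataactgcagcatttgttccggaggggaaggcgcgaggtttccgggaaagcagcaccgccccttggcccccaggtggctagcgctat
MCAM upstream window: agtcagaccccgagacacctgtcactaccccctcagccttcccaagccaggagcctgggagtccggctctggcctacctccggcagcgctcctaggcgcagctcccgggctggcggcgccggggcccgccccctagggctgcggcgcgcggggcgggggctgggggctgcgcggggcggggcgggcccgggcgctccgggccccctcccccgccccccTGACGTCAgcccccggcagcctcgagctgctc
The first base of the motif lay 103 bases before the start in CNTN1, 186 in ICAM1 and 32 in MCAM. A motif match describes letters only, and binding was not measured in these data.

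In NF-YAl against Empty, edgeR called 4 members up (CNTN1, NCAM2, MCAM and ICAM1) and 0 down, where 4.76% of all tested genes were called up and 3.5% down. In NF-YAs against Empty, 5 members were up, the same 4 genes and CADM1, and 0 down, with 5.44% of all genes up and 3.9% down. CADM1 entered the test only through the NF-YAs libraries, in which it was high, and with at least 10 counts required in every library 4 members were up in NF-YAs. Between the lines, 1 member was higher in NF-YAl (CADM4) and 2 were higher in NF-YAs (CNTN1 and CADM1), or 1 under that minimum, with 1.74% and 2.86% of all genes called in those directions. DESeq2 also called 0 members down against Empty, where it called 621 of all genes down in NF-YAl and 679 in NF-YAs. At an unadjusted p under 0.05 edgeR had 6 members higher and 1 lower in NF-YAl. In NF-YAs it had 5 higher and 2 lower, and the share of all genes at that p was not counted. L1CAM, ALCAM, NCAM1 and NRCAM were called in no comparison. Without NF-YAl D, CADM4 joined those up in NF-YAl (5 in place of 4), and the other counts of members did not change. Over all genes, 931 in place of 815 were then up in NF-YAl. A fit without NF-YAl A and B was chosen after the NFYA transcript shares had been seen. In it the lone library D is assumed to vary like the other lines. Its log2 fold changes in NF-YAl against Empty were 1.18 for CNTN1, 1.29 for NCAM2 and 0.67 for CADM4. For NF-YAl against NF-YAs they were -2.17 for CNTN1, -5.92 for CADM1 and 1.57 for CADM4. Both overexpressing lines were set against the same 3 Empty libraries, so the comparisons with Empty are not independent of each other. The members were chosen with earlier results of these data known, so their counts beside the shares of all genes are no test of the family.

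**Figure D1:**
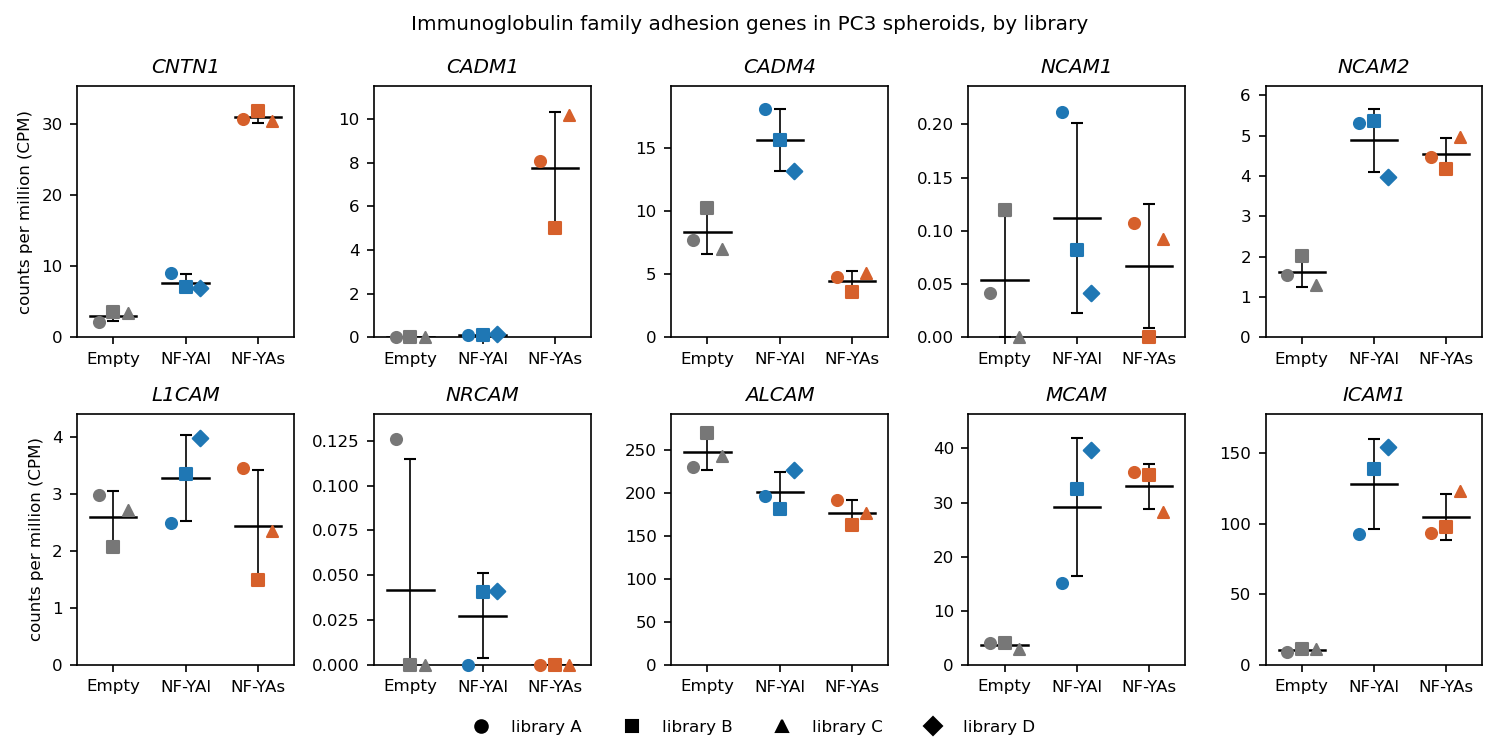
CPM of the 10 genes in each library, with libraries as symbols by their letter, the mean as a bar and the SD as whiskers, cut at 0. The vertical axes start at 0 and differ between panels. CNTN1 lay at 30.4 to 31.9 CPM in NF-YAs against 2.14 to 3.58 in Empty, and MCAM and ICAM1 were high in both NF-YAl and NF-YAs.

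CNTN1 (contactin 1), the lipid-anchored neural adhesion protein that pairs with CNTNAP1 at the axon beside nodes of Ranvier, rose in both lines and most in NF-YAs. The gene spans chr12:41086241-41466217 of GRCh37 on the plus strand. Its level was 2.14, 3.58 and 3.35 CPM in the Empty libraries A, B and C. In NF-YAl it was 9.07, 7.07 and 6.86 CPM in libraries A, B and D. In NF-YAs it was 30.7, 31.9 and 30.4 CPM in libraries A, B and C. No library of one line overlapped those of another. CNTN1 rose 2.52-fold in NF-YAl (log2 fold change 1.33, SE 0.187, adjusted p = 0.000226). In NF-YAs it rose 10.2-fold (3.35, SE 0.187, adjusted p = 4.13e-07). The direct comparison put it 4.05-fold higher in NF-YAs than in NF-YAl (adjusted p = 2.37e-05). Most of its TPM came from the transcript of 5661 bases, with 92.4% ± 9.22 in Empty against 94.6% ± 5.01 in NF-YAl, and 90.7% ± 3.52 in NF-YAs (SD, n = 3). These shares were not tested. The 100 tested genes nearest to CNTN1, spread over chr12:31079362-51454207, had a median log2 fold change of 0.05 in NF-YAl and 0.12 in NF-YAs.

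Of the other contactins none was called against Empty. CNTN4, at 4.84 CPM in Empty, was at 4.63 in NF-YAl and 2.92 in NF-YAs, where its log2 fold change of -0.73 had an adjusted p of 0.00908 but stayed within the fold limit. CNTN2 (log2 fold change -0.42 and -0.77) and CNTN5 (-1.04 and 0.27) passed no test in NF-YAl or NF-YAs, and CNTN3 and CNTN6 had too few reads. CNTNAP1, the partner of CNTN1, was at 62.6 CPM in Empty against 53.6 in NF-YAl, and 56.8 in NF-YAs, with adjusted p = 0.228 and 0.448. CNTNAP2, the related partner of CNTN2, rose from 1.81 CPM to 4.46 in NF-YAl (log2 fold change 1.3, SE 0.319, adjusted p = 0.00833), and reached 5.22 in NF-YAs (1.53, SE 0.318, adjusted p = 0.00281). PTPRZ1, a receptor phosphatase that binds contactin 1, had too few reads for a test.

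CADM1 (SynCAM1, also known as the tumor suppressor TSLC1), which holds epithelial cells together through calcium-independent contacts, was detected almost only in NF-YAs. It lies at chr11:115039938-115375675 on the minus strand. There were 0 counts in each of the 3 Empty libraries, which allows a level of up to 0.0403 CPM over the group. The NF-YAl libraries A, B and D held 2, 2 and 3 counts. The NF-YAs libraries A, B and C held 150, 101 and 221 counts, or 8.08, 5.03 and 10.2 CPM. CADM1 was called up in NF-YAs by the edgeR fit (adjusted p = 2.4e-06), but it passed the filter on low counts only through the NF-YAs libraries. By counts, NF-YAs was at least 194-fold above Empty when Empty is set to a floor of 3 counts over the group. NF-YAs exceeded NF-YAl 75.6-fold after scaling to library size, from 472 against 7 summed counts, with a 95% counting interval of 36.4 to 189 (adjusted p = 1.88e-05 for the direct comparison). For NF-YAl against Empty the adjusted p was 0.0293, above the threshold, so CADM1 was not called. In NF-YAs the transcript of 4307 bases took all of the CADM1 TPM in library A, 64.8% in B and 89.8% in C, and that of 4223 bases took the rest. The 7 counts in NF-YAl were all assigned to the transcript of 4223 bases.

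CADM4 (nectin-like 4), a relative of CADM1 in epithelia and glia, lay above Empty in every NF-YAl library and below it in every NF-YAs library. It lies at chr19:44126520-44144002 on the minus strand. Levels were 7.72, 10.2 and 7.01 CPM in Empty A, B and C. In NF-YAl they were 18.1, 15.7 and 13.2 CPM (A, B and D), all above Empty. In NF-YAs they were 4.74, 3.58 and 5.07 CPM (A, B and C), all below Empty. The direct comparison was called, with CADM4 3.50-fold higher in NF-YAl than in NF-YAs (log2 fold change 1.81, SE 0.197, adjusted p = 9.02e-05). Against Empty, the log2 fold change was 0.91 in NF-YAl (SE 0.186, adjusted p = 0.00285), while that of NF-YAs was -0.90 (SE 0.198, adjusted p = 0.00386). Both passed the p threshold but not the fold limit, so neither was called. The call depended on single libraries here. CADM4 was called up in NF-YAl without Empty B (1.09) or without NF-YAl D (1.02). It was called down in NF-YAs without Empty C (-1.01) or without NF-YAs C (-1.0). Other omissions lost the p threshold. In NF-YAl the edgeR adjusted p was 0.0146 without Empty A, 0.0192 without Empty C and 0.0103 without NF-YAl B. In NF-YAs it was 0.0199 without Empty B, 0.0133 without NF-YAs A and 0.0228 without NF-YAs B.

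CADM2, the third CADM gene with enough reads, fell in NF-YAs. It was at 24.8, 28.5 and 26.2 CPM in Empty against 21.5, 18.6 and 17.2 in NF-YAl, with 7.81, 7.71 and 8.85 in NF-YAs. Its log2 fold change in NF-YAs was -1.70 (SE 0.128, adjusted p = 2.4e-06). In NF-YAl it was -0.48, with an adjusted p of 0.0102. NF-YAs thus had CADM1 above Empty and both CADM2 and CADM4 below it in every library. CADM3 had too few reads. EPB41L3 (protein 4.1B, DAL-1), which ties the cytoplasmic tail of CADM1 to the actin skeleton, rose in both lines. It was at 4.40, 6.28 and 4.96 CPM in Empty against 54.7, 43.1 and 45.8 in NF-YAl, with 39.6, 48.7 and 47.9 in NF-YAs. Its log2 fold change was 3.19 in NF-YAl (SE 0.156, adjusted p = 2.3e-07), while that of NF-YAs was 3.12 (SE 0.156, adjusted p = 2.36e-07). NECTIN3, a nectin of epithelial junctions, rose in NF-YAl from 23.3 to 59.1 CPM (log2 fold change 1.34, SE 0.142, adjusted p = 2.99e-05) and was at 37.0 CPM in NF-YAs, within the fold limit.

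NCAM2, a homophilic adhesion molecule of the olfactory system, rose in both lines. It lies at chr21:22370727-22915650 on the plus strand. It was at 1.55, 2.03 and 1.3 CPM in Empty A, B and C. In NF-YAl A, B and D it was at 5.30, 5.36 and 3.98 CPM, and in NF-YAs A, B and C at 4.47, 4.18 and 4.98. Both lines lay above every Empty library and overlapped each other. NCAM2 rose 2.99-fold in NF-YAl (log2 fold change 1.58, SE 0.221, adjusted p = 0.000219). It rose 2.79-fold in NF-YAs (1.48, SE 0.222, adjusted p = 0.000305). Between the lines the log2 difference was 0.10 (SE 0.207, adjusted p = 0.756). Its 100 nearest tested genes spread over chr21:10906317-42903043 and had medians of -0.24 in NF-YAl and -0.42 in NF-YAs, opposite in sign to NCAM2. NCAM1, the archetype of the family and a marker of neural and neuroendocrine cells, lies at chr11:112831997-113149158 on the plus strand and had few reads in all lines. Its counts were 1, 3 and 0 in Empty against 4, 2 and 1 in NF-YAl, with 2, 0 and 2 in NF-YAs, too few for a test. Of the other neuroendocrine markers, INSM1 was listed at 0 in every library and CHGA reached at most 0.29 TPM, while ENO2 averaged 149.7 TPM in Empty against 116.7 in NF-YAl, and 78.6 in NF-YAs. ST8SIA4, one of the enzymes that put polysialic acid on NCAM1, rose in NF-YAl from 2.61 to 5.59 CPM (log2 fold change 1.10, SE 0.219, adjusted p = 0.00243) and was at 3.91 CPM in NF-YAs, where it passed no test.

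L1CAM, a neural adhesion molecule that many carcinomas express at the invasive front, showed no difference that exceeded the spread between libraries. It lies at chrX:153126969-153151627 on the minus strand. Its level was 2.98, 2.07 and 2.72 CPM in Empty against 2.49, 3.35 and 3.98 in NF-YAl, with 3.45, 1.49 and 2.35 in NF-YAs, with all lines overlapping. The log2 fold change was 0.35 in NF-YAl (SE 0.294, adjusted p = 0.402), while that of NF-YAs was -0.09 (SE 0.302, adjusted p = 0.835). The 100 tested genes nearest to L1CAM spread over chrX:130822807-154948759. Their median log2 fold change was -0.75 in NF-YAl and -0.74 in NF-YAs, against 0.01 and 0.00 over all genes tested. L1CAM thus stood above the median of these genes in both lines. NRCAM, an L1 relative that clusters sodium channels at the axon initial segment, lies at chr7:107788068-108097161 on the minus strand. It had 3, 0 and 0 counts in Empty, 0, 1 and 1 in NF-YAl and 0 in each NF-YAs library, which for NF-YAs allows up to 0.0497 CPM over the group. NFASC, another L1 relative, was at 28 CPM in Empty against 45.5 in NF-YAl, and 53.5 in NF-YAs, with adjusted p = 0.0466 and 0.0108, and CHL1 had too few reads. Ankyrin 2 (ANK2), to which the tails of L1 proteins bind, rose in NF-YAs from 2.42 to 10.3 CPM (log2 fold change 2.08, SE 0.165, adjusted p = 3.45e-06). It was at 4.37 CPM in NF-YAl, lower than in NF-YAs by the direct test (log2 fold change -1.23, SE 0.158, adjusted p = 0.000275).

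ALCAM (CD166), the activated leukocyte adhesion molecule found at prostate epithelial contacts, was called in no comparison. It had the highest mean TPM of the members in every line. In NF-YAl, though, its TPM exceeded that of ICAM1 in only 1 of the 3 libraries. ALCAM lies at chr3:105085753-105295744 on the plus strand. It was at 230.1, 270.4 and 243.4 CPM in Empty against 196.6, 182.0 and 226.6 in NF-YAl, with 192.2, 163.0 and 176.8 in NF-YAs. Both lines lay below every Empty library. The log2 fold change was -0.30 in NF-YAl (SE 0.11, adjusted p = 0.0559). In NF-YAs it was -0.48 (SE 0.11, adjusted p = 0.00464), a difference within the fold limit. The 100 tested genes nearest to ALCAM, spread over chr3:93591895-121143608, had medians of 0.22 in NF-YAl and 0.35 in NF-YAs, opposite in sign to ALCAM. Around CADM1, CADM4, NCAM1, NRCAM, MCAM and ICAM1 such medians against Empty lay between -0.08 and 0.09. ALCAM was also the one member with 2 or more transcripts above 1 TPM, 4 in all. The transcript of 4910 bases held 77.3% ± 4.43 of ALCAM TPM in Empty against 79.5% ± 2.51 in NF-YAl, and 78.9% ± 1.53 in NF-YAs (SD, n = 3). An exact two-sided permutation test, which cannot go below 0.1 here, gave p = 0.6 for NF-YAl and 0.7 for NF-YAs against Empty. The other 3 transcripts, of 4871, 2946 and 1969 bases, each held 2.72% to 11.1% on average, with p from 0.1 to 0.7 in the same exact permutation test against Empty.

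MCAM (CD146, MUC18), a melanoma and endothelial adhesion molecule that binds laminin alpha 4, rose in both lines. It lies at chr11:119179239-119192231 on the minus strand. The Empty libraries A, B and C had 3.98, 4.05 and 2.95 CPM. The NF-YAl libraries A, B and D had 15.1, 32.6 and 39.8 CPM, a wide spread with library A lowest. The NF-YAs libraries A, B and C had 35.7, 35.1 and 28.3 CPM. MCAM rose 7.98-fold in NF-YAl (log2 fold change 3.0, SE 0.302, adjusted p = 2.18e-05). It rose 9.01-fold in NF-YAs (3.17, SE 0.303, adjusted p = 1.22e-05). Between the lines the log2 difference was -0.18 (SE 0.264, adjusted p = 0.665), and it became 0.13 without NF-YAl A. The MCAM locus overlaps CBL on the opposite strand, and whether counting used the strand is not given in the sources used here. CBL was at 147.0 to 163.3 CPM in Empty against 111.8 to 123.5 in NF-YAl, and 130.6 to 137.7 in NF-YAs, so its level did not rise with MCAM. LAMA4, the laminin alpha 4 chain, rose from an Empty mean of 6.87 CPM to 22 in NF-YAl (log2 fold change 1.68, SE 0.142, adjusted p = 7.08e-06), with 25 in NF-YAs (1.86, SE 0.142, adjusted p = 2.67e-06). LGALS1 (galectin 1), a lectin that also binds MCAM, fell in NF-YAl from 533.6 to 248.2 CPM (log2 fold change -1.10, SE 0.0998, adjusted p = 1e-05). In NF-YAs it was at 335.9 CPM, within the fold limit.

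ICAM1 (CD54), the inducible ligand of the leukocyte integrins LFA-1 and Mac-1 and a classical target of NF-kappaB signalling, had the largest called log2 fold change of the members in NF-YAl. It lies at chr19:10381769-10397291 on the plus strand, and the lncRNA genes LIMASI and ICAM4-AS1 overlap it on the opposite strand. It was at 9.31, 11.5 and 11.2 CPM in Empty A, B and C. In NF-YAl it was at 92.7, 138.6 and 154.2 CPM in libraries A, B and D. In NF-YAs it was at 93.2, 97.7 and 123.4 CPM in libraries A, B and C. Every library of both lines lay above every Empty library, and the lines overlapped each other. ICAM1 rose 12-fold in NF-YAl (log2 fold change 3.59, SE 0.195, adjusted p = 3.48e-07). In NF-YAs it rose 9.81-fold (3.29, SE 0.193, adjusted p = 4.55e-07). The log2 difference between the lines was 0.29 (SE 0.172, adjusted p = 0.236).

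Other ICAM genes were called in either direction. ICAM5, the neuronal member, rose from an Empty mean of 2.03 CPM to 7.11 in NF-YAl (log2 fold change 1.80, SE 0.231, adjusted p = 0.000114), with 5.59 in NF-YAs (1.45, SE 0.233, adjusted p = 0.00049). ICAM3, a leukocyte member, fell in NF-YAs from 37.2 to 17.3 CPM (log2 fold change -1.11, SE 0.132, adjusted p = 5.78e-05). In NF-YAl it was at 19.99 CPM, with a log2 fold change of -0.89 within the fold limit. ICAM4 passed no test, and ICAM2 had too few reads. Of the integrin chains that bind ICAM1, ITGB2 was at 12.1 CPM in both NF-YAl and NF-YAs with log2 fold changes of -0.26 and -0.27, and ITGAM was called up in both lines, at 0.815 CPM in NF-YAl and 1.01 in NF-YAs against 0.214 in Empty. ITGAL, the LFA-1 alpha chain, was at 0.713 CPM in Empty against 0.662 in NF-YAl (log2 fold change -0.12, adjusted p = 0.821). In NF-YAs it was at 0.283 CPM, below Empty in every library but not called (-1.32, adjusted p = 0.0158).

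**Figure D2:**
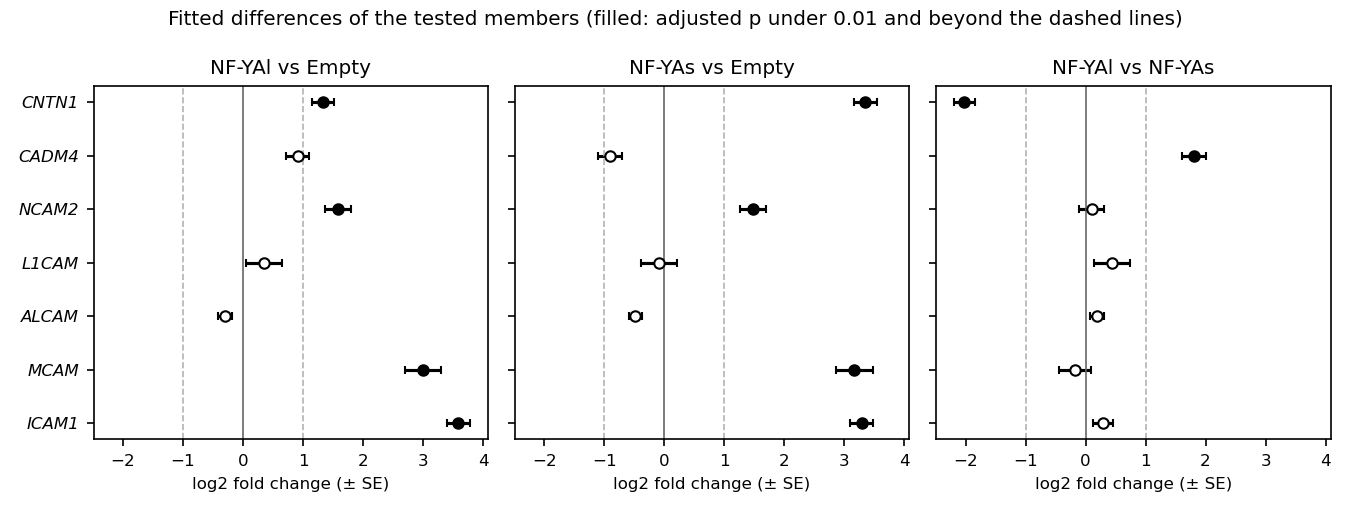
Fitted log2 fold change and SE of 7 of the 8 tested genes in the 3 comparisons, with filled points for called genes and dashed lines at the fold limit. CADM1 is left out, since its Empty libraries held 0 counts. CNTN1 and CADM4 lie on opposite sides of 0 in the comparison of NF-YAl with NF-YAs, at -2.02 and 1.81.

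Levels were compared between genes by TPM. In Empty, ALCAM led at 62.7 TPM, followed by CADM4 at 4.61 and ICAM1 at 3.83, whose libraries overlapped. MCAM came next at 1.31 TPM, followed by CNTN1 at 0.62, L1CAM at 0.603 and NCAM2 at 0.377, which overlapped their neighbours in that order. In NF-YAl, ICAM1 was at 61.1 TPM and overlapped ALCAM at 65.1, which was the higher of them in only 1 of the 3 libraries. MCAM (13.8) and CADM4 (10.7) overlapped each other below them, and CNTN1 (2.01), NCAM2 (1.39) and L1CAM (1.0) overlapped their neighbours further down. Within each of the 3 NF-YAl libraries CNTN1 was above NCAM2. In NF-YAs, ALCAM (49.97) and ICAM1 (42.4) overlapped, and MCAM at 13.2 TPM and CNTN1 at 7.29 each stood clear of the next gene in all 3 libraries. The ranges of CADM4 (2.79) and CADM1 (2.35) overlapped there, above NCAM2 at 1.17 and L1CAM at 0.637. Within each of the 3 NF-YAs libraries CADM4 was above CADM1. The TPM of NF-YAl D were high for many members, with 98.1 for ALCAM and 98.6 for ICAM1 against at most 54.7 and 47.5 in the other NF-YAl libraries, while its CPM stood apart less.

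**Figure D3:**
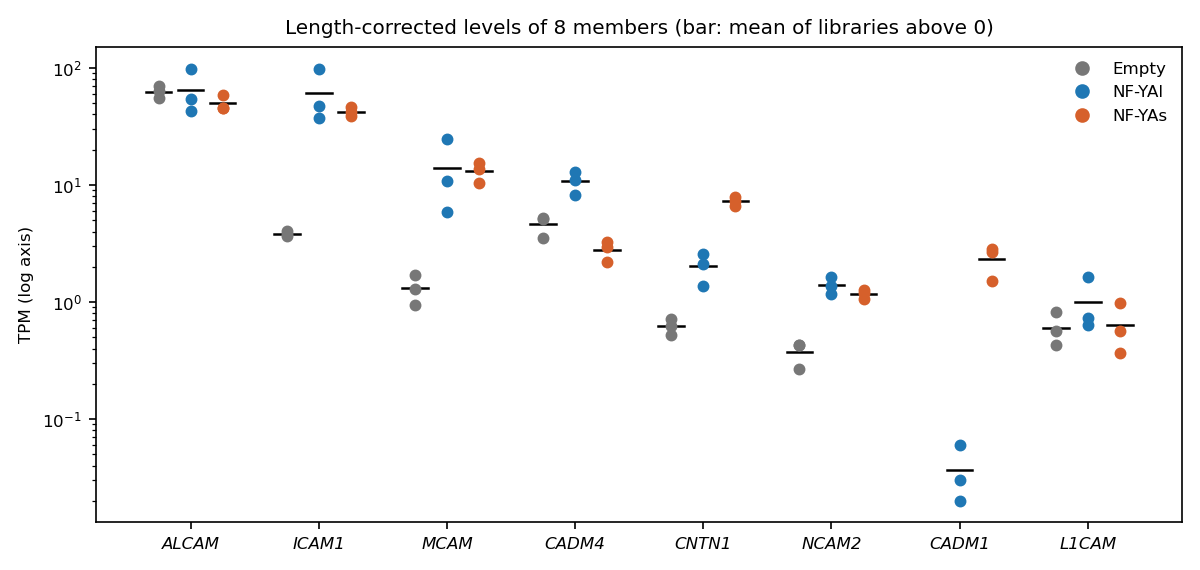
TPM of 8 genes in each library on a log axis, grouped by line, with the mean of the libraries above 0 as a bar. NCAM1 and NRCAM are left out, and CADM1 has no point in Empty, where it was at 0. In Empty, ICAM1 at 3.83 TPM lay far below ALCAM at 62.7. In NF-YAl, ICAM1 at 61.1 lay next to ALCAM at 65.1, both highest in library D (98.6 and 98.1).

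Other adhesion molecules of the family, listed with earlier results of these data known, moved in both directions. Of 60 such genes, 46 were tested, and 6 were called up and 3 down in NF-YAl against Empty, where 4.76% and 3.5% of all tested genes were called, with a median log2 fold change of 0.02 over the list and 0.01 over all tested genes. In NF-YAs, 8 were up and 5 down (5.44% and 3.9% of all tested genes), with a median of -0.18 against 0.00 over all genes. Between the lines, 3 were higher in NF-YAl and 3 higher in NF-YAs (1.74% and 2.86% of all tested genes), with a median of 0.20. CXADR, the coxsackievirus receptor of tight junctions, rose from an Empty mean of 8.77 CPM to 35.7 in NF-YAl (log2 fold change 2.02, SE 0.256, adjusted p = 0.000106), with 28.3 in NF-YAs (1.69, SE 0.255, adjusted p = 0.000319). LSAMP, a lipid-anchored IgLON protein, rose from 5.43 to 18.5 CPM in NF-YAl (1.76, SE 0.246, adjusted p = 0.000214), with 12.4 in NF-YAs (1.19, SE 0.247, adjusted p = 0.00267). CEACAM6, a carcinoembryonic antigen relative, fell from 10.01 CPM to 0.778 in NF-YAl (log2 fold change -3.62, SE 0.56, adjusted p = 0.000429), with 0.785 in NF-YAs (-3.63, SE 0.568, adjusted p = 0.000408). MPZL2, an epithelial junction protein, fell in NF-YAl from 8.30 to 1.52 CPM (-2.44, SE 0.191, adjusted p = 3.64e-06).

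Further genes were called in NF-YAs and not in NF-YAl. SDK1, a sidekick protein of synaptic layers, rose from 15.6 to 44.7 CPM (log2 fold change 1.52, SE 0.18, adjusted p = 5.43e-05), and IGSF9B from 3.98 to 8.72 CPM (1.13, SE 0.261, adjusted p = 0.00506). PECAM1 (CD31), better known from endothelium, fell from 6.27 to 1.88 CPM (-1.73, SE 0.201, adjusted p = 4.8e-05). BCAM, a laminin receptor, fell from 202.5 to 80.8 CPM (-1.32, SE 0.224, adjusted p = 0.000696). The direct test placed PECAM1 (1.56, SE 0.202, adjusted p = 0.000302) and CADM2 (1.23, SE 0.128, adjusted p = 6.67e-05) higher in NF-YAl than in NF-YAs, and SDK1 lower (-1.18, SE 0.178, adjusted p = 0.000794). For BCAM and IGSF9B that test missed the threshold (adjusted p = 0.0192 and 0.346). AMIGO2 was 1.56 higher in NF-YAl than in NF-YAs on the log2 scale (SE 0.19, adjusted p = 0.000195). The remaining called genes, outside the naming rule because of low levels and listed with their values in view, were NTM and AMIGO1 (up in both lines), CEACAM5 (down in NF-YAl), SDK2 (up in NF-YAs and higher there than in NF-YAl) and MPZL2 (lower in NF-YAl than in NF-YAs).

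Of 30 binding partners and modifying enzymes, also listed with earlier results known, 26 were tested. In NF-YAl 5 were called up (EPB41L3, LAMA4, ST8SIA4, CNTNAP2 and ITGAM) and 1 down (LGALS1), where 4.76% and 3.5% of all tested genes were called, with a median log2 fold change of -0.06. In NF-YAs 5 were up (EPB41L3, ANK2, LAMA4, CNTNAP2 and ITGAM) and 0 down by edgeR and DESeq2 (5.44% and 3.9% of all tested genes by edgeR). The median was -0.02, and at an unadjusted p under 0.05 edgeR had 10 higher and 5 lower. Between the lines 0 were higher in NF-YAl by either tool, and 1 was lower by edgeR (ANK2) and 2 by DESeq2. Of all tested genes edgeR called 1.74% higher and 2.86% lower. At an unadjusted p under 0.05 edgeR had 2 partners higher and 8 lower in NF-YAl than in NF-YAs. The share of all genes at that p was not counted, so the unadjusted counts show no trend of the partners. The proteases that shed L1CAM and ALCAM had log2 fold changes of 0.01 and -0.15 for ADAM10 and 0.08 and -0.03 for ADAM17 in NF-YAl and NF-YAs.

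**Figure D4:**
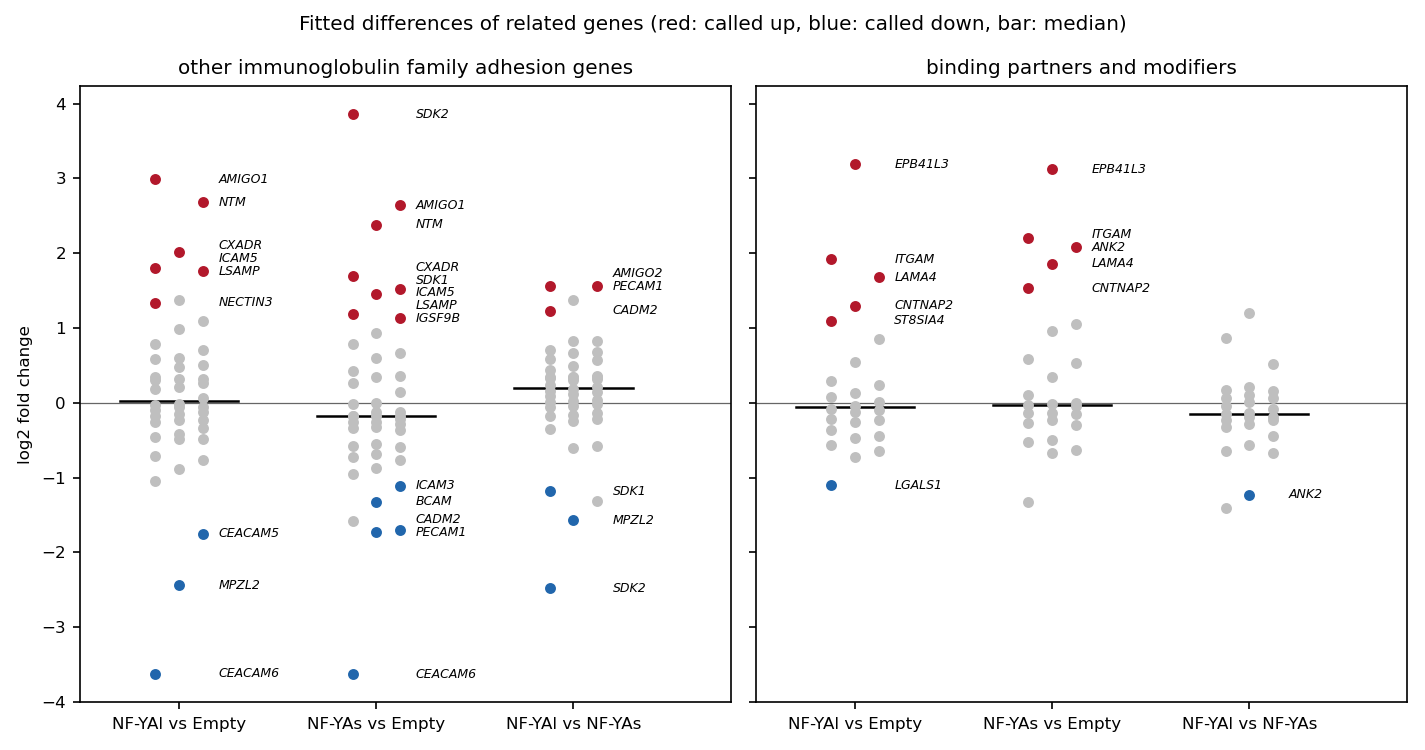
Fitted log2 fold changes of 46 other family members (left) and 26 partners and modifiers (right) in the 3 comparisons, with called genes coloured and named and the median as a bar. Most points lie near 0, while EPB41L3 stands at 3.19 in NF-YAl and 3.12 in NF-YAs and CEACAM6 at -3.62 and -3.63.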

How the data were processed

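RNA-seq libraries were made by the submitters from total RNA of PC3 MTSs, 3 per line, with a stranded total RNA kit. The authors aligned reads to human RefSeq transcripts of GRCh37 (hg19) with bowtie2 within RSEM and deposited expected counts, which share reads between transcripts and are not normalized. They also deposited TPM, which are corrected for effective length and scaled to one total per library, and the percent of a gene's TPM in each transcript. FPKM columns were not used. Whether strand was used in counting is not given in the sources used here. Groups and replicate letters came from the sample titles.

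Rounded expected counts of genes were tested with edgeR 4.0.16 in R 4.3.3 (filterByExpr, TMM scaling, quasi-likelihood F test of 3 groups in one fit, Benjamini-Hochberg over 17108 genes). Calls needed an adjusted p under 0.01 and a |log2 fold change| above 1. SEs are |log2 fold change| over the square root of F. CPM are TMM-scaled. Floors are 3 counts over a group, and 95% intervals and floors cover counting error only. With 3 libraries per line, p-values measure the spread between these libraries. Counts of replicates differed by more than sampling noise (chi-square per gene 6.39 to 92.7). All 10 members, NFYA and the called genes of 2 lists of related genes were named, the latter if the higher line averaged 5 CPM or more and libraries did not overlap, up to 5 per list, comparison and direction, or 3 between the lines. Members and lists were chosen with earlier results of these data known. The procedure was tested on simulated data. Positions are from GENCODE for GRCh37, promoters from a RefSeq table. Alternatives were DESeq2 1.42.0, an effective length offset, RLE scaling, unfiltered genes, a minimum of 10 counts per library, a fit limited to the groups compared, blocks by replicate letter, an adjusted p under 0.05, no fold limit, limma 3.58.1 on log2(TPM + 0.5) or log2(TPM + 0.1), leaving out each library and, chosen after seeing the data, NF-YAl D as the sole NF-YAl library. The xenografts, tumor data sets and other assays of the study were not analysed here. Figures were drawn with matplotlib 3.10.9.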

Additional observations from a re-analysis of the deposited data

Results flagged for a closer look

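The effects of NF-YAl and NF-YAs against the shared Empty libraries differed by the direct edgeR test for 3 of the 8 tested members, 1 higher and 2 lower in NF-YAl, where 1.74% and 2.86% of all tested genes were called in those directions. For CNTN1 the log2 difference, NF-YAl minus NF-YAs, was -2.02 (SE 0.173, adjusted p = 2.37e-05), with all 3 NF-YAs libraries above all 3 NF-YAl libraries. For CADM1 the fitted value was -6.16 (adjusted p = 1.88e-05), which depends on the prior count since NF-YAl held 7 counts in all, and CADM1 passed the filter on low counts only through the NF-YAs libraries, where it was high. For CADM4 it was 1.81 (SE 0.197, adjusted p = 9.02e-05), with all 3 NF-YAl libraries above Empty and all 3 NF-YAs libraries below it.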

How the results depend on the processing

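Of 446 recomputed log2 fold changes of members, 435 kept their direction and side of the threshold, 5 became calls, 1 lost its call and 5 turned sign. This total includes fits without a library of the line not compared, which can hardly move a value. It also hides changes of size, since CADM1 in NF-YAs went from 10.45 to 2.47 with limma on log2(TPM + 0.5). A value within the fold limit counted as kept even where its p lost the threshold. CADM4 in NF-YAs had adjusted p = 0.171 with limma on log2(TPM + 0.5) and 0.158 on log2(TPM + 0.1). The 5 that became calls were CADM4 values against Empty: 1.13 in NF-YAl with limma on log2(TPM + 0.5), and the 4 calls given with CADM4 when a library was left out. NCAM2 in NF-YAs fell to 0.94 with limma on log2(TPM + 0.5) (adjusted p = 0.0196). With each library left out in turn, L1CAM in NF-YAs ranged from -0.42 to 0.16 and MCAM between the lines from -0.46 to 0.13, and members called down in NF-YAs from 0 to 1, that one being CADM4 without Empty C or without NF-YAs C. With NF-YAl D as the sole NF-YAl library, a choice made after seeing the data, the differences between the lines, called in neither fit, were -0.19 for NCAM2 and 0.27 for MCAM. Without a fold limit, 2 members were down in NF-YAs, and over all genes 1714 were up and 1632 down in NF-YAl, 2063 and 1802 in NF-YAs, and 804 higher and 1070 lower in NF-YAl than in NF-YAs. With at least 10 counts in every library, 618 genes were up in NF-YAs, and 1 member was lower in NF-YAl than in NF-YAs, since CADM1 was then not tested. Genes higher in NF-YAl than in NF-YAs numbered 298 in the reported fit, 198 with only those groups fitted, 500 at an adjusted p under 0.05, and 166 to 407 with each library left out, the lowest without NF-YAs B. The cause of these shifts was not tested.

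All lines have libraries lettered A and B, and the labels do not say whether a letter marks a shared experiment. Between lines, residuals of libraries with the same letter correlated at -0.0651 to 0.253, against -0.22 to 0.163 for different letters. These ranges overlap, with Empty B and NF-YAl B highest, and do not settle whether letters are pairs. The letters were therefore not taken as pairs in the reported fit. With the letter as a replicate block, edgeR called 4 members up in NF-YAl and 5 in NF-YAs, and 1 higher and 2 lower in NF-YAl than in NF-YAs, and the block changed no call of a member. Over all genes it called 905 up in NF-YAl and 995 in NF-YAs. Depth limits what can be said of NCAM1, NRCAM and, outside NF-YAs, CADM1, which had at most 4 counts in a library.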
